A study of Homo sapiens with 20 samples.

Results

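The 10 genes described here encode Polycomb repressive complex 2 (PRC2) and the enzymes that remove its mark. They are EZH1 and EZH2, SUZ12, EED, RBBP4 and RBBP7, JARID2 and MTF2, and the demethylases KDM6A and KDM6B. Their members were all probe sets whose platform annotation names only 1 of these genes, which gave 23 of the 22277 probe sets on the array. These 10 genes stand among 11963 genes named by a single-gene probe set. One further probe set names SUZ12 together with its pseudogene SUZ12P1 and was kept out of the 23.

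RNA came from 10 established human lines of T-cell acute lymphoblastic leukemia, T-ALL for short. They were RPMI8402, CUTLL1, KOPTK1, ALL-SIL, PF382, DND41, CCRF-CEM, P12-ICHIKAWA, HPB-ALL and MOLT3, and the series' description gives all of them activating NOTCH1 mutations. Each line gave 1 array after 72 h in 100 nM CompE, a gamma-secretase inhibitor that blocks the cut releasing active NOTCH1, and 1 array after 72 h in the vehicle DMSO, 20 arrays in all. The lines have no untreated array and no line without a NOTCH1 mutation. For CCRF-CEM, MOLT3 and P12-ICHIKAWA the growth label of the DMSO array gives the name of another of the cell lines, RPMI8402, where the CompE label gives an RPMI medium. Whether the medium differed was not tested.

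PRC2 places methyl groups on lysine 27 of histone H3, a mark of silenced genes. EZH2 or EZH1 is the catalytic subunit, SUZ12 and EED hold the core together and EED reads the mark, and RBBP4 or RBBP7 binds histones. JARID2 and MTF2 are accessory subunits that bring the complex to chromatin, while KDM6A (UTX) and KDM6B (JMJD3) remove the methyl groups. In T-ALL, EZH2 and SUZ12 are known as targets of inactivating lesions, KDM6A is known as a tumour suppressor, and KDM6B is known as a coactivator of NOTCH1.

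The labelled cell type fits its markers. All 8 T-cell markers on the array lay above the signal filter of 32.5, with sums of 8771 to 21471 on the CompE arrays and 8782 to 20183 on the DMSO arrays. None of the 4 myeloid or 2 erythroid markers on the array passed it. Of the others on the array, 2 of 4 B-cell, 1 of 3 epithelial and 2 of 4 fibroblast markers did. The summed B-cell markers ranged from 93.3 to 1962 on the CompE arrays and from 124 to 2576 on the DMSO arrays, led by CD79A, which reached 2469 on 1 array. Epithelial markers summed to 48.0 to 230 on the CompE arrays and 49.4 to 216 on the DMSO arrays, and fibroblast markers to 60.9 to 188 and 34.3 to 160.3. The known NOTCH targets HES1, MYC, NOTCH3 and CR2 all fell under CompE in their brightest probe sets, with log2 changes of -1.71, -1.498, -1.34 and -1.95. HES1 was lower in 10 of 10 lines and each of the others in 9. The 2 other HES1 probe sets changed by -0.63 and 0.31, and the other NOTCH3 probe set by 0.069. The 3'/5' signal ratio of ACTB, a measure of RNA and labelling quality, averaged 2.28 ± 2.64 on the CompE arrays and 1.47 ± 0.687 on the DMSO arrays (SD, n = 10 each) and was higher under CompE in 9 of 10 lines. KOPTK1 stood apart, with a ratio of 9.76 under CompE and 3.32 in DMSO.

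Under CompE, 2 of the 10 genes rose, EZH1 and JARID2, and none fell. Of the 23 probe sets, 22 passed the filter, and 4 of these rose in a limma fit paired by cell line (adjusted p under 0.05 over all tested probe sets), 2 of EZH1 and 2 of JARID2. Over all 11685 tested probe sets 4.92% were called, 2.31% higher and 2.61% lower, that is 270 higher and 305 lower. Median centring of the arrays turned that split to 120 higher and 446 lower, and quantile normalization to 312 and 370. With 1 probe set per gene, 7.17% of 7695 genes were called, 3.94% (303 genes) higher and 3.24% lower, against 116 higher and 340 lower with median centring and 309 and 282 with quantile normalization. The median change of the 10 genes was 0.060 on the log2 scale, beside 0.044 over all genes. In these bulk samples, fewer cells of a kind and less RNA per cell cannot be told apart.

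**Figure D1:**
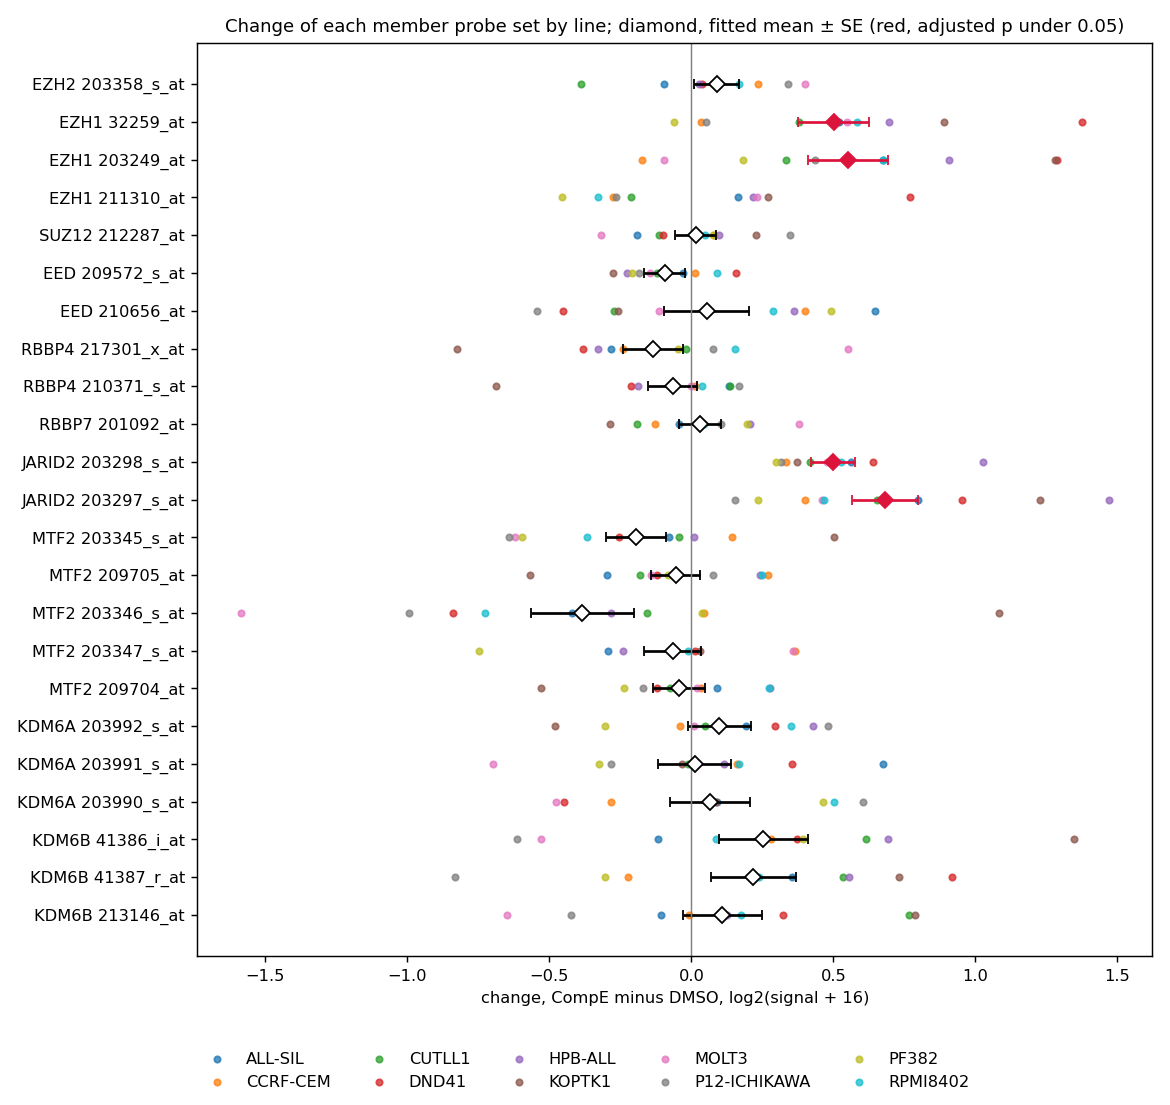
Log2 change under CompE (CompE minus DMSO) of each member probe set, on the log2(signal + 16) scale, with 1 point per cell line and a diamond for the fitted mean with its standard error (red where called). The JARID2 probe sets lie above 0 in all 10 lines and the tested ones of EZH1 in 9 and 8. EZH1 211310_at, not tested, lies above 0 in 5. The other tested probe sets average between -0.38 and 0.25.

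The promoter sequences of these rising genes are shown with that of EZH2, the paralog of EZH1 that did not pass the test, so that the letters around their starts can be set side by side. RefSeq windows of 300 bases on GRCh38.p14, 250 before and 50 after each start, were found for all 10 genes, 15 windows in all. Capitals mark matches to the motifs searched: RBPJ TGGGAA, E-box CACGTG, E2F TTTNNCGC and FOXO GTAAACA, on both strands.
JARID2, first of its windows, chr6:15245819-15246118, plus strand: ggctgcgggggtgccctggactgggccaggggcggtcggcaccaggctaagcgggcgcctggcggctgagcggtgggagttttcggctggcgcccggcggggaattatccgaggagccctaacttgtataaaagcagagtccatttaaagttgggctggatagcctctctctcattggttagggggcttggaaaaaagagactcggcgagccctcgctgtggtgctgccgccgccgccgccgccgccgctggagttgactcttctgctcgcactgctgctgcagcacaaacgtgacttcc
EZH1, chr17:42744991-42745290, minus strand: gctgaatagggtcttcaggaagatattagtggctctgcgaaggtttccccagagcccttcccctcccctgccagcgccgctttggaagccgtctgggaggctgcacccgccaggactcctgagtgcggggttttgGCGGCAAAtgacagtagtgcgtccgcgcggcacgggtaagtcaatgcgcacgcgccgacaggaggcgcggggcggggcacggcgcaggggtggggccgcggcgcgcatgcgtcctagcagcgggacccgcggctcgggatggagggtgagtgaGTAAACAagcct
EZH2, chr7:148884242-148884541, minus strand: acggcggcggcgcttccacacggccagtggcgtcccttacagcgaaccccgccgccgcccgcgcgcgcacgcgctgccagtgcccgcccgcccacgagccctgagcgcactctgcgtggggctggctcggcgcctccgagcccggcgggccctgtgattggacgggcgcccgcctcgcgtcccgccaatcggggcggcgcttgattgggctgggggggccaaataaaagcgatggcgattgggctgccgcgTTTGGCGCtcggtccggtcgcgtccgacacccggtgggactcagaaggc
Neither JARID2 window holds any of these letters. EZH1 has an E2F match on the opposite strand at position -115 from its start, whose base counts as 1, and a FOXO match at position 39, and EZH2 has an E2F match at position 2. E2F letters occur in 5 of the 15 windows, those of EZH1, EZH2, MTF2, RBBP7 and SUZ12, beside 6.89% of 35116 RefSeq windows. The FOXO letters occur in 3.42% of all windows. RBPJ letters, those bound by the NOTCH cofactor, lie in windows of KDM6B and RBBP7 and in 24.03% of all windows, and E-box letters in windows of KDM6A and RBBP4 and in 7.26% of all windows. These matches are letters only, and no binding was measured here.

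JARID2, which recruits PRC2 to chromatin and tunes its activity, had the clearest change. Its probe set 203298_s_at measured 573 at the lowest (DND41), 2088.5 at the median and 3162 at the highest (HPB-ALL) under CompE, and 362 (DND41), 1579.8 and 1790.4 (MOLT3) in DMSO. The groups overlap because the lines differ, but within each of the 10 lines the CompE array was the higher one. The rise averaged 0.50 ± 0.077 on the log2 scale (SE, n = 10 lines), a fold of 1.41, with a limma adjusted p of 0.00669. Arrays averaged a signal of 2013 ± 674 under CompE and 1423 ± 440 in DMSO (SD, n = 10 each).

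The other JARID2 probe set, 203297_s_at, measured 871 at the lowest (DND41), 1753 at the median and 2974 at the highest (HPB-ALL) under CompE, and 442 (DND41), 1234 and 1634 (CCRF-CEM) in DMSO. Again every line was higher under CompE, by 0.68 ± 0.117 on average (SE, n = 10), a fold of 1.60 with a limma adjusted p of 0.00995. A rise in all 10 lines was seen in 1.49% of all tested probe sets and 1.86% of genes. The exact sign-flip p of both probe sets was 0.00195, the smallest that 10 lines allow. Across lines the changes of the 2 probe sets had r = 0.74 and their DMSO levels r = 0.95 (n = 10, from the same arrays).

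HPB-ALL had the greatest JARID2 rise in both probe sets, 1.03 and 1.47. PF382 had the smallest in 203298_s_at, 0.30, and P12-ICHIKAWA in 203297_s_at, 0.15. In KOPTK1 the probe sets parted, with 0.37 in 203298_s_at and 1.23 in 203297_s_at. DND41 stood far below the other lines in level, 1.35 log2 units under the next line in 203298_s_at, where the residual SD was 0.15, yet its rises of 0.64 and 0.95 were above the average. With the change of the ACTB ratio as a covariate the rises were 0.51 and 0.53, with limma adjusted p of 0.0259 and 0.0433.

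**Figure D2:**
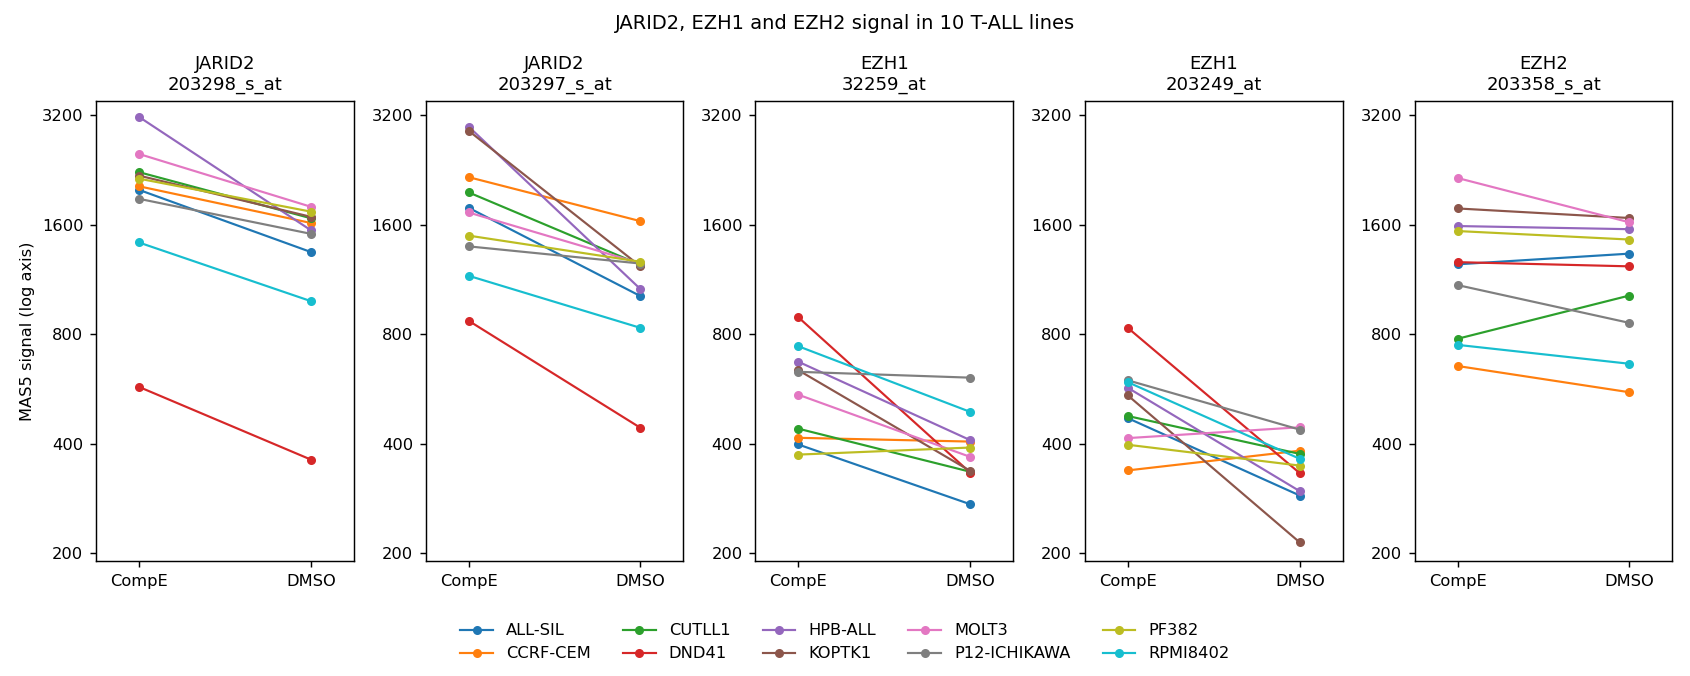
Signal (log scale) of the called JARID2 and EZH1 probe sets and of EZH2 in each cell line, CompE left and DMSO right, with a line joining the arrays of a cell line. JARID2 is higher under CompE in every line, and DND41 lies lowest in both conditions.

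EZH1, the catalytic subunit with the weaker methyltransferase activity that is known to prevail in non-dividing cells, rose in both probe sets above the filter. Probe set 32259_at measured 373 at the lowest (PF382), 588 at the median and 890.4 at the highest (DND41) under CompE, and 273 (ALL-SIL), 379 and 607 (P12-ICHIKAWA) in DMSO. It was higher under CompE in 9 of 10 lines, by 0.50 ± 0.125 on average (SE, n = 10), a fold of 1.42 with a limma adjusted p of 0.0325 and an exact sign-flip p of 0.00781. The line that was not higher was PF382, with a change of -0.062.

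Probe set 203249_at of EZH1 measured 338 at the lowest (CCRF-CEM), 509 at the median and 832 at the highest (DND41) under CompE, and 214 (KOPTK1), 356 and 444 (MOLT3) in DMSO. Its rise averaged 0.55 ± 0.140 (SE, n = 10), a fold of 1.47, higher in 8 of 10 lines, with a limma adjusted p of 0.035 and an exact sign-flip p of 0.00977. Both probe sets were annotated to 1 accession, so they are 2 readings of 1 RNA, and their changes had r = 0.79 across lines. DND41 rose most in both, by 1.38 and 1.29, and KOPTK1 was next, by 0.89 and 1.28. CCRF-CEM changed by 0.033 and -0.17.

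The remaining EZH1 probe set, 211310_at, lay under the filter, at 20.7 ± 13.4 under CompE and 19.7 ± 7.87 in DMSO (SD, n = 10 each), and was not tested. The EZH1 call was lost under more settings than that of JARID2. The mean of its 3 probe sets, the dim one included, changed by 0.35 (limma adjusted p = 0.0886), while the mean of the JARID2 probe sets changed by 0.59 (0.00687). With the ACTB ratio as a covariate it was lost, at 0.36 (limma adjusted p = 0.15) in 32259_at and 0.33 (0.199) in 203249_at. Leaving out ALL-SIL, CUTLL1, DND41, HPB-ALL or RPMI8402 also ended the call in both probe sets, and leaving out MOLT3 ended it in 32259_at, with limma adjusted p between 0.0566 and 0.0925 over the 11 fits; the changes stayed between 0.40 and 0.58, lowest without DND41.

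Lines with a greater EZH1 rise tended to have a greater JARID2 rise. Between 32259_at and JARID2 203297_s_at r was 0.71 and rho 0.82, and between 32259_at and 203298_s_at r was 0.54 and rho 0.75 (n = 10 lines). Both genes are read from the same arrays, so array quality and scaling are shared. The change of the ACTB ratio had r = 0.63 with EZH1 203249_at, and 0.13 without KOPTK1 and DND41, and r = 0.46 with EZH1 32259_at, -0.071 without those lines. With JARID2 203297_s_at it had r = 0.50, and 0.069 without them, and with JARID2 203298_s_at r = -0.067, and 0.19 without them. The part of RNA quality in the EZH1 and JARID2 changes was not tested beyond the covariate fits.

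**Figure D3:**
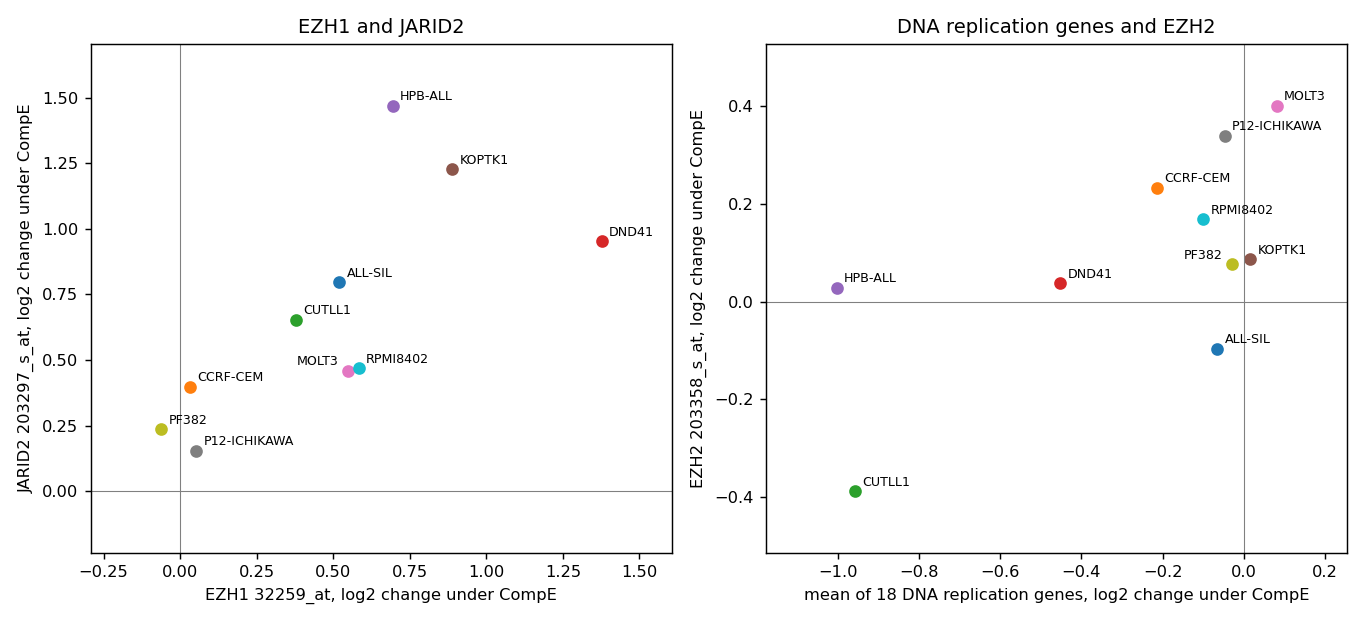
Change of the EZH1 probe set 32259_at against that of JARID2 203297_s_at, and mean change of 18 DNA replication genes against that of EZH2, 1 point per cell line, both axes in log2 units. DND41 and HPB-ALL lie high for EZH1 and JARID2, and HPB-ALL and CUTLL1 have the lowest replication means.

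EZH2, the main catalytic subunit of dividing cells, did not pass the test. Its probe set measured 654 at the lowest (CCRF-CEM), 1252 at the median and 2148 at the highest (MOLT3) under CompE, and 554 (CCRF-CEM), 1279 and 1667 (KOPTK1) in DMSO. The change averaged 0.089 ± 0.080 (SE, n = 10, limma adjusted p = 0.542), with a 95% interval of -0.081 to 0.26, and 8 of 10 lines were higher. CUTLL1 went the other way, with a change of -0.39, and MOLT3 had the greatest change, 0.40. Without CCRF-CEM, MOLT3 and P12-ICHIKAWA the average was -0.012.

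The change of EZH2 minus that of EZH1 averaged -0.41 ± 0.525 per line (SD, n = 10) and was below 0 in 7 of 10 lines. It was 1 of 3 paralog pairs tested with an exact sign-flip test, which gave p = 0.0371, or 0.111 after Benjamini-Hochberg adjustment over the 3 pairs, with an interval of -0.79 to -0.04 for the unadjusted test. The pair's difference thus did not pass the threshold. DND41 had the lowest difference, -1.34, and P12-ICHIKAWA the highest, 0.29.

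Cell line made up 95.3% of the sum of squares of EZH2, the highest share among the tested member probe sets. That share is smaller where CompE itself changes a gene. By the limma F-test of the cell line terms, JARID2 203298_s_at had a smaller adjusted p, 3.74e-07 beside 6.1e-06 for EZH2. In DMSO the highest line was 3.01 times the lowest for EZH2 and 4.95 times for JARID2 203298_s_at. MOLT3 measured 2148 under CompE and 1622 in DMSO, KOPTK1 1771 and 1667, RPMI8402 747 and 663, and CCRF-CEM 654 and 554. The first 2 lines lie 0.12 log2 units apart, less than the residual SD of 0.16, so their order is not settled.

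EZH2 is known as an E2F target that goes with cell division, and the DNA replication genes were therefore read beside it. Of 18 such genes tested, none was called in either direction and 9 had an unadjusted limma p under 0.05, all lower, beside 764 of 7695 genes lower at that p. Their median change was -0.27, beside 0.044 over all genes. The count of 0 depends on the setting. Median centring called 3 of the 18 lower, GINS2 (limma adjusted p = 0.0325), CDC6 (0.0314) and MCM4 (0.0322). A random line block also called 3 lower, and the fit without KOPTK1, which called 1028 genes over the array, called 4. GINS2 changed by -0.56 (limma adjusted p = 0.0524), CDC6 by -0.47 (0.0537), MCM4 by -0.40 (0.0552) and MCM6 by -0.27 (0.1). Their mean change per line was -0.28 ± 0.398 (SD, n = 10) and below 0 in 8 lines, lowest in HPB-ALL at -1.003. Across lines it had r = 0.65 and rho = 0.61 with the EZH2 change, and r = 0.34 without HPB-ALL and CUTLL1, from the same arrays.

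The core subunits SUZ12 and EED did not pass the test. SUZ12, which the other core subunits dock on, measured 1148 (CCRF-CEM), 1999 and 2926 (P12-ICHIKAWA) at the lowest, median and highest under CompE, and 1086 (CCRF-CEM), 2003.5 and 2451 (RPMI8402) in DMSO. Its change averaged 0.016 (limma adjusted p = 0.924), with a 95% interval of -0.14 to 0.17. CCRF-CEM lay 0.58 log2 units under the next line, where the residual SD was 0.14. The probe set that also names SUZ12P1 gave 556 ± 113 under CompE and 583 ± 114 in DMSO (SD, n = 10 each), and in it gene and pseudogene cannot be told apart.

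EED, the subunit that binds the methylated lysine, has a bright probe set, 209572_s_at, that averaged 777 ± 133 under CompE and 831 ± 156 in DMSO (SD, n = 10 each). Its change was -0.093 (limma adjusted p = 0.464), with a 95% interval of -0.25 to 0.060 and 3 of 10 lines higher. P12-ICHIKAWA was highest and CCRF-CEM lowest in both conditions. The dim EED probe set 210656_at averaged 51.2 ± 20.2 under CompE and 49.1 ± 17.4 in DMSO, and its per-line changes had r = 0.047 with the bright one.

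RBBP4 and RBBP7, the histone binding subunits that PRC2 shares with other complexes, did not pass either. RBBP7 averaged 2034 ± 368 under CompE and 1993 ± 366 in DMSO (SD, n = 10 each), with a change of 0.031 (limma adjusted p = 0.839). RBBP4 changed by -0.13 (0.474) in 217301_x_at, a probe set type that may also bind related sequences, and by -0.066 (0.693) in 210371_s_at. KOPTK1 was lowest for RBBP4, with 372 under CompE and 671 in DMSO in 217301_x_at, and 576 and 937 in 210371_s_at. The difference of RBBP7 and RBBP4 changes averaged 0.16 ± 0.274 (SD, n = 10), with an exact sign-flip p of 0.0977, or 0.146 over the 3 pairs.

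MTF2, an accessory subunit that binds unmethylated CpG-rich DNA, had 5 probe sets, none of which passed the test over all lines. Their changes were -0.19 in 203345_s_at, -0.055 in 209705_at, -0.38 in 203346_s_at, -0.066 in 203347_s_at and -0.044 in 209704_at. The widest was 203346_s_at, with 385 (CCRF-CEM), 816 and 1730.4 (CUTLL1) at the lowest, median and highest under CompE and 373 (CCRF-CEM), 1193 and 2027 (ALL-SIL) in DMSO. It was lower under CompE in 7 of 10 lines, at -0.38 ± 0.182 (SE, n = 10, limma adjusted p = 0.216), and without KOPTK1 it fell by 0.55 (limma adjusted p = 0.0234). The fit without KOPTK1 called 1321 probe sets over the array, beside 575 with all lines. Without MOLT3 the change of 203346_s_at was -0.25 (limma adjusted p = 0.404), and with the ACTB covariate -0.65 (0.0743).

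The MTF2 probe sets disagreed within KOPTK1. There 203346_s_at changed by 1.08 and 203345_s_at by 0.50, while 209705_at changed by -0.57 and 209704_at by -0.53. In MOLT3, 203346_s_at changed by -1.59 and 203347_s_at by 0.36. Across lines the correlation of their changes ran from r = -0.52 to r = 0.79 (n = 10), so 1 value for MTF2 would hide the split. KOPTK1 is also the line with the ACTB ratio of 9.76 under CompE, and the part of RNA quality in the split was not tested.

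Like most member probe sets, those of the demethylases differed more between lines than under CompE. KDM6A measured 101 (CCRF-CEM), 186 and 394 (RPMI8402) at the lowest, median and highest in 203992_s_at under CompE, and 104 (CCRF-CEM), 197 and 305.0 (RPMI8402) in DMSO. Its change averaged 0.098 ± 0.111 (SE, n = 10, limma adjusted p = 0.638), and the other 2 probe sets changed by 0.012 and 0.066. RPMI8402 was the highest line in all 3 KDM6A probe sets in both conditions.

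KDM6B, the inducible demethylase, was highest in CUTLL1 in its brightest probe set. That probe set, 41386_i_at, measured 151 (ALL-SIL), 436 and 1189 (CUTLL1) at the lowest, median and highest under CompE, and 165 (ALL-SIL), 325 and 770.1 (CUTLL1) in DMSO. The change averaged 0.25 ± 0.156 (SE, n = 10, limma adjusted p = 0.346), with a 95% interval of -0.078 to 0.58. Without KOPTK1 it was 0.13, and with the ACTB covariate 0.022. Other settings raised it, to 0.34 without MOLT3, 0.35 without P12-ICHIKAWA and 0.48 (limma adjusted p = 0.115) without CCRF-CEM, MOLT3 and P12-ICHIKAWA. By line the change reached 1.35 in KOPTK1 and -0.61 in P12-ICHIKAWA. The other 2 probe sets changed by 0.22 (limma adjusted p = 0.395) and 0.11 (0.68), and 41387_r_at shares its accession with 41386_i_at.

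The KDM6B change minus the KDM6A change averaged 0.15 ± 0.799 (SD, n = 10), with an exact sign-flip p of 0.58 and an interval of -0.40 to 0.73. Without KOPTK1 the average was -0.031, so its sign rested on that line.

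The 18 tested probe sets of the 8 genes other than EZH1 and JARID2 had average changes between -0.38 and 0.25 and limma adjusted p between 0.216 and 0.968. For 15 of them the 95% interval lay within 0.5 log2 units of 0 on both sides. The interval and not the missed threshold bounds what these 10 pairs allow.

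Between lines, levels of these genes differed widely. A limma F-test of the cell line terms was passed by 19 of 22 member probe sets, beside 74.1% of all tested probe sets. The exceptions were both EZH1 probe sets, at adjusted p of 0.0957 and 0.59, and EED 210656_at at 0.0641. Cell line made up a median of 84.6% of the sum of squares of the member probe sets, beside 79.4% over all. CCRF-CEM was the lowest line for 9 of 23 member probe sets under CompE and 8 in DMSO, ALL-SIL for 4 and 5, and KOPTK1 for 3 and 7. HPB-ALL was the highest line for 6 under CompE and 0 in DMSO, RPMI8402 for 4 and 6, and CUTLL1 for 4 and 3. These counts were not made over all probe sets, so they cannot be called particular to the member genes. Several of the 23 probe sets also read the same gene, MTF2 most often.

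**Figure D4:**
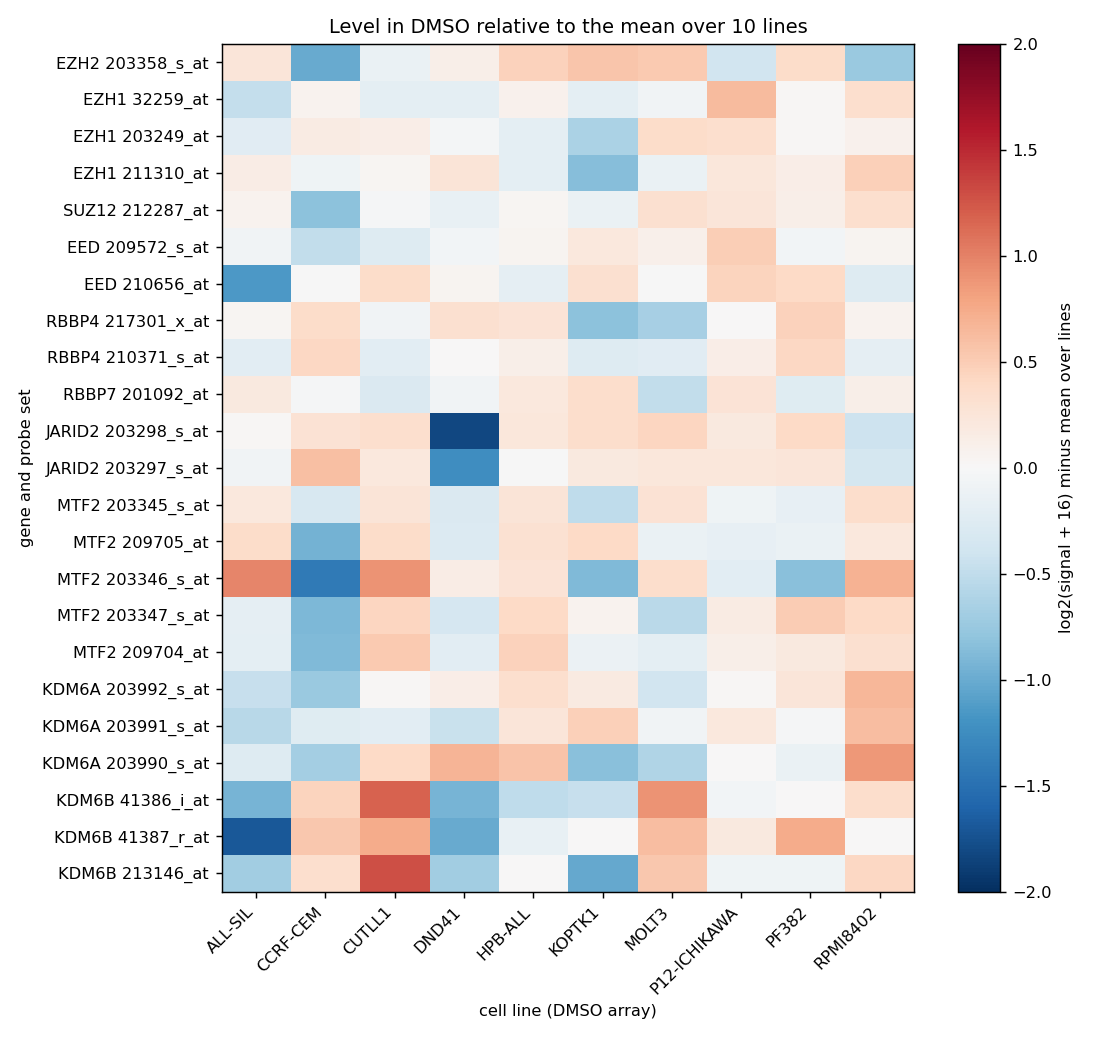
Level of each member probe set (rows) on the DMSO array of each cell line (columns), as log2(signal + 16) minus that probe set's mean over the 10 DMSO arrays, red above and blue below the mean. CCRF-CEM is low for EZH2 (554) and SUZ12 (1086), DND41 for JARID2 (362 and 442), and CUTLL1 is high for KDM6B (770.1 in 41386_i_at).

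The genes most like 4 of the members over the 10 DMSO arrays, by Pearson's r among 7694 genes, were PELI1 (0.89), CD1A (0.88) and MCM6 (0.88) for EZH2, and SLC35A3 (0.93), TBCC (0.92) and RHEX (0.89) for EZH1. For KDM6A they were CFLAR (0.92), GPR137B (0.89) and RALGPS2 (0.89), and for KDM6B POLR3F (0.92), ABCB6 (0.88) and VAT1 (0.88). With 10 arrays, between 11 and 31 genes had r above 0.8 with each, so these are descriptions of line order.

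Genes of the wider chromatin machinery were counted beside the members. Of the PRC2 accessory factors outside them, PHF1 was the only 1 of 6 with a single-gene probe set, and it rose by 0.51 ± 0.129 (SE, n = 10, limma adjusted p = 0.0276), at 849 ± 274 under CompE and 578 ± 160 in DMSO (SD). PHF1 binds methylated lysine 36 of histone H3 and links PRC2 to it. With the ACTB ratio as a covariate its call was lost, at 0.43 (limma adjusted p = 0.115), and it was lost in 5 of 10 leave-one-line-out fits. Its other probe set changed by 0.31, and the mean of both, 0.41, was not called (limma adjusted p = 0.0678).

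PRC1, which binds the mark PRC2 leaves and ubiquitinates histone H2A, had 2 of 15 tested genes higher and none lower, with a median change of 0.14. Over all tested genes 3.94% were called higher and 3.24% lower. Without KOPTK1, 3 of the PRC1 genes were higher and 1 lower, in a fit that called 1028 genes over the array beside 552 with all lines. PCGF3, a subunit of a variant PRC1, rose by 0.47 ± 0.101 in 10 of 10 lines (SE, limma adjusted p = 0.0159), and CBX7, a reader of the mark, by 0.42 ± 0.118 (0.0448). The other PCGF3 probe set changed by 0.065, and the mean of both, 0.27, was not called (limma adjusted p = 0.0696). Leaving out a line kept the PCGF3 call in all 10 fits and ended the CBX7 call in 7, and median centring ended the CBX7 call too, at 0.35 (0.0687). PHC1 changed by 0.31 (0.104) and RYBP by 0.22 (0.192) without passing, RYBP being called without KOPTK1 at 0.29 (0.0404), and other RYBP probe sets changed by as little as -0.41.

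The trithorax and COMPASS genes, whose products methylate lysine 4 and oppose Polycomb, had 1 of 12 tested genes higher and none lower, with a median of 0.035. Over all tested genes 3.94% were higher and 3.24% lower, and 1 call in so short a list cannot be set apart from that share. The riser was SETD1B, a lysine 4 methyltransferase, at 0.73 ± 0.149 (SE, n = 10, limma adjusted p = 0.0131). NCOA6 changed by 0.28 (0.0672), RBBP5 by -0.41 (0.0939) and SETD1A by -0.37 (0.135), short of the threshold. Without KOPTK1 these 3 were called, at 0.33 (limma adjusted p = 0.0213), -0.49 (0.0327) and -0.46 (0.0411). That fit called 1028 genes over the array, beside 552 with all lines.

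Of the other complexes that hold RBBP4 or RBBP7, NuRD, SIN3 and CAF-1, 1 of 13 tested genes was lower and none higher, with a median of -0.10. The shares over all tested genes were 3.24% lower and 3.94% higher, from which 1 call cannot be set apart. SAP30, a SIN3 subunit, fell by 0.33 (limma adjusted p = 0.0284), while its 3 other probe sets changed by -0.18 to 0.045, and the call was lost in 5 of 10 leave-one-line-out fits. The mean of its probe sets was -0.16 (0.301). HDAC2 changed by -0.24 (0.0844), GATAD2A by -0.42 (0.122) and CHD4 by 0.30 (0.149), and the mean of CHD4's probe sets was -0.068.

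Among the other histone demethylases, 1 of 13 tested genes was higher and none lower, with a median of 0.18. Here too 1 call cannot be set apart from the shares over all tested genes, 3.94% higher and 3.24% lower. KDM4B, which acts on lysines 9 and 36, rose by 0.43 ± 0.108 (SE, n = 10, limma adjusted p = 0.0271), a call lost in 5 of 10 leave-one-line-out fits and with median centring, at 0.36 (0.0788). Its 4 other probe sets changed by -0.079 to 0.28, and the mean of its probe sets, 0.18, was not called (0.365). KDM7A, known to act on lysines 9 and 27, changed by 0.36 (0.072), KDM3B by 0.18 (0.194) and KDM4C by 0.26 (0.259).

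Of 17 genes classically silenced by PRC2, 11 were on the array and 5 passed the filter, and 0 were called. WT1 changed by 0.35 (limma adjusted p = 0.154), HOXB7 by 0.34 (0.161), PAX6 by 0.28 (0.259) and CDKN1C by 0.21 (0.421), each higher in 7 of 10 lines. The median of the 5 was 0.28, beside 0.044 over all genes, and 2 had an unadjusted limma p under 0.05 and were higher, beside 1170 of 7695 genes. Without KOPTK1, WT1 was called higher, at 0.45 (limma adjusted p = 0.0324), in a fit that called 1028 genes over the array beside 552 with all lines. Genes that pass a filter on signal are those not silent here, so these 5 are not all members of that list.

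**Figure D5:**
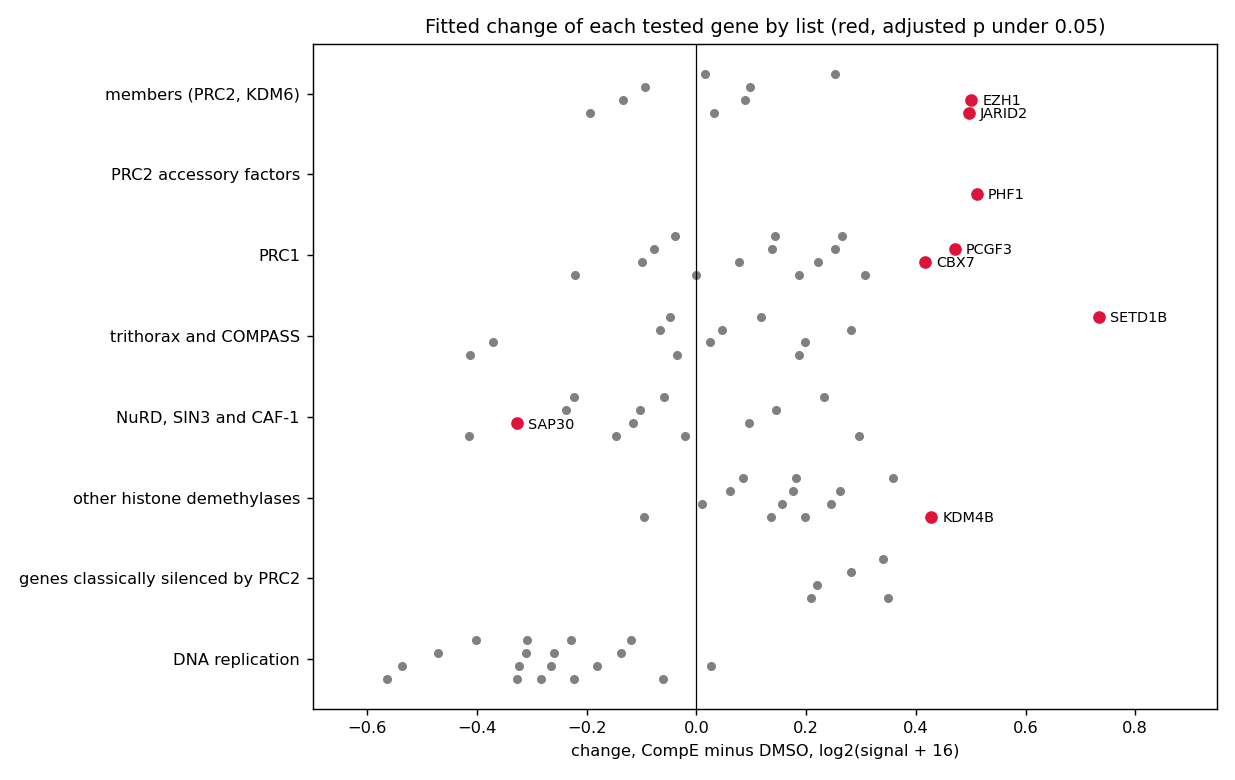
Log2 change under CompE (CompE minus DMSO) of the tested members, of the tested genes of each chromatin list and of DNA replication, 1 point per gene, with called genes in red and named and a line at 0. SAP30 (-0.33) is the called gene that is lower, SETD1B (0.73) lies farthest to the right, and in this fit none is called among the PRC2-silenced and DNA replication genes, of which median centring calls 3 DNA replication genes lower.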

How the data were processed

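The authors deposited 1 table of linear signal intensities, made with MAS5 per the submitters' processing notes, whose version is not given in the sources used here. Trimmed by 2% at each end, array means were 249.9 to 250.1, so all 20 arrays carry 1 scaling target, which was kept. Array medians were 54.7 to 74.8. Such scaling hides any change in total RNA per cell, and MAS5 values near 0 are noisy.

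Of 22277 probe sets, 62 controls were left out, and the platform annotation, which can be old, gave 1 gene for 19064 others and several for 1043. Signals were analysed as log2(signal + 16), which understates the fold of dim genes. Those whose mean log2 signal lay under the 40th percentile (about 32.5) were left out. limma 3.58.1 in R 4.3.3 fitted the CompE effect with cell line as a block and an intensity trend in eBayes, with Benjamini-Hochberg adjustment at 0.05, two-sided. For gene counts the brightest probe set of each gene was used. The labels name the line of each array and so give the pairing; the closest DMSO array of each of the 10 CompE arrays was that of its line (r of at least 0.918). Separate cultures within a line are not stated, so p-values cover the spread among these 10 lines, and the number of arrays limits precision. The code was tested on simulated data.

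Paralog pairs had an exact sign-flip permutation test, two-sided, with 1024 patterns from 10 lines. The members, gene lists and tests were chosen with earlier results of these data known. Named genes are all members, up to 4 genes with the smallest adjusted p of each list, and the 3 genes most like EZH2, EZH1, KDM6A and KDM6B. HES1, MYC, NOTCH3 and CR2 served as the check of the inhibitor. Other scalings, pseudocounts, filters, blocks, tests and left-out lines were tried. Probe positions, protein sequences and binding data were not analysed here.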

Additional observations from a re-analysis of the deposited data

Results flagged for a closer look

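Among 69 groups of 10 values (each member probe set in CompE, in DMSO and as a change), 13 had 1 line far from the rest by Dixon's test. Chance does this in about 1 in 20 groups where values follow 1 normal distribution. The test was not run over all probe sets, of which 74.1% of those tested differed between lines. Whether 13 of 69 is more than elsewhere on the array therefore cannot be told. Probe sets of 1 gene and groups of 1 line share arrays, so these are not independent.

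DND41 was far below the other lines for JARID2: 203298_s_at measured 573 under CompE (next line 1428) and 362 in DMSO (next 986), and 203297_s_at measured 442 in DMSO (next 832). HPB-ALL had the JARID2 change farthest from the others, 1.03 in 203298_s_at, with 0.64 next.

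KOPTK1 was far below the other lines for RBBP4 under CompE, at 576 in 210371_s_at (next 962) and 372 in 217301_x_at (next 1009). Its change in 210371_s_at was -0.69, with -0.21 next. The EZH1 probe set under the filter, 211310_at, measured 3.26 in KOPTK1 in DMSO, with 14.3 next.

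CCRF-CEM was far below the other lines in DMSO for SUZ12, at 1086 (next 1737), and for MTF2, at 248 in 209704_at (next 405) and 595 in 209705_at (next 951). ALL-SIL measured 12.3 in EED 210656_at in DMSO (next 36.1). CUTLL1 measured 621 in KDM6B 213146_at under CompE, with 214 next.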

How the results depend on the processing

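JARID2 stayed past the threshold in both probe sets in 19 of 21 alternatives and in all 10 fits that left out a line (0.44 to 0.52 in 203298_s_at, 0.59 to 0.74 in 203297_s_at); it was lost with no replicate block (limma adjusted p of at least 0.92) and with the exact sign-flip test adjusted over all probe sets (0.066). Each EZH1 probe set stayed in 11 of 21, with 0.40 to 0.56 in 32259_at and 0.47 to 0.63 in 203249_at when a line was left out. For 203249_at the lost fits include that with no filter and no pseudocount added (limma adjusted p = 0.0531). With no filter and the pseudocount of 16 kept, this probe set was called (limma adjusted p = 0.0499). Median centring gave 0.48 (limma adjusted p = 0.0543) for 203249_at. Without the replicate block, that is unpaired, 0 member probe sets were called (3 at an unadjusted p under 0.05), 0 of all probe sets (534) and 0 genes (369). The sign-flip test called 0 (4), 0 (2582) and 0 (1851), where 10 lines set its floor. With the ACTB ratio as a covariate 2 member probe sets, 347 probe sets and 318 genes were called. With no filter and no pseudocount added, 330 probe sets and 341 genes were called, so the part of the filter alone is not shown. Without CCRF-CEM, MOLT3 and P12-ICHIKAWA the counts were 206 probe sets and 289 genes. Leaving out 1 line gave 2 to 5 member probe sets, 93 (without HPB-ALL) to 1321 (without KOPTK1) probe sets and 178 to 1028 genes. Counts of probe sets that differ between lines stayed within 1.5 times in all 16 alternatives, at 17 to 20 members and 7781 to 9229 of all when 1 line was left out.

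Directions turned only for members and genes that were not called. Median centring gave -0.017 for EED 210656_at, -0.0056 for KDM6A 203990_s_at, -0.059 for KDM6A 203991_s_at, -0.041 for RBBP7 and -0.056 for SUZ12, and quantile normalization -0.062 for EED 210656_at and -0.050 for KDM6A 203991_s_at. The ACTB covariate gave -0.030 for KDM6B 213146_at, 0.075 and 0.047 for MTF2 209704_at and 209705_at, 0.088 and 0.036 for RBBP4 210371_s_at and 217301_x_at, and -0.051 for SUZ12. Without CCRF-CEM, MOLT3 and P12-ICHIKAWA, EZH2 was -0.012 and RBBP7 -0.0061. The mean of all probe sets gave -0.068 for CHD4 and -0.020 for RYBP. With 1 line left out, changes ran from -0.011 to 0.12 for EED 210656_at, -0.061 to 0.091 for KDM6A 203991_s_at, -0.11 to 0.0095 for MTF2 203347_s_at, -0.079 to 0.010 for 209704_at, -0.092 to 0.0016 for 209705_at, -0.092 to 0.0035 for RBBP4 210371_s_at, -0.0075 to 0.066 for RBBP7, -0.021 to 0.053 for SUZ12 and -0.031 to 0.29 for KDM6B minus KDM6A. The causes were not tested. Dim probe sets (EED 210656_at, KDM6A 203990_s_at) are limited by signal.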
